A study of Mus musculus with 2 samples.

Results

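F3 CD142 progenitors are taken here as Pdgfra-expressing stromal cells of fat whose highest score among 6 sets of progenitor genes is that of F3, Fmo2, Mfap4 and Chrdl1, although few of the cells carry all 4 transcripts. They were looked at in 2 droplet single-cell RNA libraries from mouse subcutaneous white fat, 1 labelled WT and 1 labelled Paqr4 transgenic. Both were made from the stromal vascular fraction, the cells left after the adipocytes are removed, from which CD45-negative cells had been sorted, and cells of 3 mice were pooled. The series text does not say whether that means 3 mice of each genotype, and the labels give no promoter for the transgene, no strain, no age and no sex. The member rule found 211 cells among 2483 Pdgfra cells and 2854 cells in all, 72 of them in the WT library and 139 in the transgenic one.

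A Pdgfra cell is a barcode with at least 1000 UMIs (unique molecular identifiers, each standing for 1 captured RNA molecule), at least 500 genes, at most 10% mitochondrial UMIs and at least 1 Pdgfra UMI. For every gene of the rule, the log of UMIs per 10000 was standardised over these cells with both libraries together, and the F3 score is the mean over F3, Fmo2, Mfap4 and Chrdl1. The 5 other scores, of 4 genes each, stand for Dpp4, lipid, Il6, Itgbl1 and Ptn progenitors. A cell is a member when its F3 score is the highest of the 6 and at least 0.5. Measured values of these 24 genes and of Pdgfra therefore chose the cells, and they are given below as a description that supports nothing. Each genotype has a single library, which leaves no replicates, so no difference was tested. All intervals are 95% intervals of counting error only, and those of levels and ratios are too narrow where a few cells hold most of the UMIs.

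F3 encodes tissue factor, also called CD142, the cell surface receptor that binds factor VIIa and starts blood coagulation. In mouse subcutaneous fat, stromal cells sorted on CD142 were described as adipogenesis regulators, because they formed few adipocytes and held back adipocyte formation by neighbouring progenitors. The other stromal populations named beside them are Dpp4 cells of the fat interstitium and Icam1 cells that are closer to the adipocyte. Of the other rule genes, Fmo2 encodes a flavin-containing monooxygenase, Mfap4 a microfibril-associated glycoprotein that binds elastic fibres, and Chrdl1 a secreted antagonist of bone morphogenetic proteins (BMPs).

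F3 (ENSMUSG00000028128) lies on the plus strand of chromosome 3, at 121723537 to 121735048 in GRCm38. The 250 bases before its start, chr3:121723287-121723536 on the plus strand, are shown because F3 names these cells. They are RefSeq sequence of GRCm38.p6, written 5′ to 3′, and the capitals mark 1 match to the AP-1 letters TGAGTCA and 3 matches to the GC box letters GGGCGG, the second of them on the opposite strand.
F3: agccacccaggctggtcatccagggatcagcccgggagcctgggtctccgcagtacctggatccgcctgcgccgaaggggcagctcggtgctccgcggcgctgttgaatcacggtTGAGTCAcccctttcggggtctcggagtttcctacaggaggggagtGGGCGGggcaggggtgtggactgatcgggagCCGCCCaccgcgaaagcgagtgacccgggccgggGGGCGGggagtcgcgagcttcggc
The AP-1 match begins 135 bases before the start, and the GC box matches begin 89, 58 and 24 bases before it. Both strands were searched, and the motifs do not overlap. Of 32851 windows of 250 bases in the same table, 4.46% hold the AP-1 letters and 32.7% hold the GC box letters. The table has windows for Fmo2 without either match. The Fmo2 gene spans chr1:162874317-162898726 (minus strand), the Mfap4 gene chr11:61485431-61488900 (plus strand) and the Chrdl1 gene chrX:143285674-143394262 (minus strand).

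Tmem176a and Tmem176b, which encode related membrane proteins, are shown because both were among the 15 genes that stood highest over the other Pdgfra cells and because they start head to head. The window is chr6:48841233-48841482 on the plus strand in GRCm38.p6, the 250 bases before a Tmem176a start at 48841483. A Tmem176b start on the minus strand lies at 48841137, which is 346 bases away. Capitals mark the 155 bases, 48841233 to 48841387, that are also within the 250 bases before that Tmem176b start.
Tmem176a and Tmem176b: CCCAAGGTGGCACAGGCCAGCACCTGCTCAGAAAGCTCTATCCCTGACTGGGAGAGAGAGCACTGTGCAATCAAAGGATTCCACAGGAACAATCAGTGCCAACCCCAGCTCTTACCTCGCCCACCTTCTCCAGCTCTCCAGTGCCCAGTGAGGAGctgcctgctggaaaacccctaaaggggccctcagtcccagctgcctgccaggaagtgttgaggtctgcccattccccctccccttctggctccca
The window holds no match to the AP-1 letters, the GC box letters or the TATA box letters TATAAA, which 12.4% of all windows hold. Of the 15 highest genes, 10 had a window in the table. Among these 10 genes, 1 (Egflam) had the AP-1 letters, 1 (C7) had the TATA letters and 0 had the GC box letters.

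The libraries were of like depth. They held 44145257 UMIs in WT and 43084906 in transgenic, with medians of 21631 and 18742 UMIs per cell, and haemoglobin made up 28.2% and 29.1% of all UMIs. No cell barcode occurred in both libraries. The libraries differed in sex: in members, the X-inactivation RNA Xist stood at 952 UPM (UMIs per 1000000 UMIs of the group) in WT and 0.385 UPM in transgenic, and Y-linked Ddx3y at 0.646 and 99.8 UPM. Genotype and sex, and anything else that separated the libraries, therefore cannot be told apart in what follows. Paqr4, the gene of the transgene, encodes a receptor-like membrane protein of the PAQR family. Members held 11 Paqr4 UMIs in the WT library, or 7.10 UPM (3.55 to 12.7), and 23 in the transgenic library, or 8.87 UPM (5.62 to 13.3). The ratio of transgenic over WT was 0.32 on the log2 scale (−0.77 to 1.50), so no difference in Paqr4 was detectable at this depth.

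Members made up 6.34% of Pdgfra cells in WT (4.99 to 7.92, Clopper-Pearson) and 10.3% in transgenic (8.75 to 12.1). With scores standardised within each library, the shares were 8.63% (98 cells) and 8.54% (115 cells). That scaling sets the mean of each rule gene equal in both libraries, so it also takes away a part of any true gap. These near-equal shares therefore cannot decide whether the libraries differed in members. Fmo2 and Mfap4 were higher in the transgenic library among the non-members too, at 216 against 107 UPM and 21.9 against 11.0 UPM. Chrdl1 went the other way, at 1.61 against 6.26 UPM, and without Chrdl1 in the score the shares were 6.51% in WT and 14.7% in transgenic. When each cell was cut down at random to 5000 UMIs, members took 7.48% (5.92 to 9.30) of WT cells and 9.83% (8.16 to 11.7) of transgenic cells, with overlapping intervals, and 19 WT and 26 transgenic cells were too shallow to be used and another 128 and 192 lost their Pdgfra UMI. After thinning, 42 of the 72 WT members and 72 of the 139 transgenic members were still members. Members that were no longer members include cells that were too shallow or lost Pdgfra, and how many changed by their score alone was not counted.

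**Figure D1:**
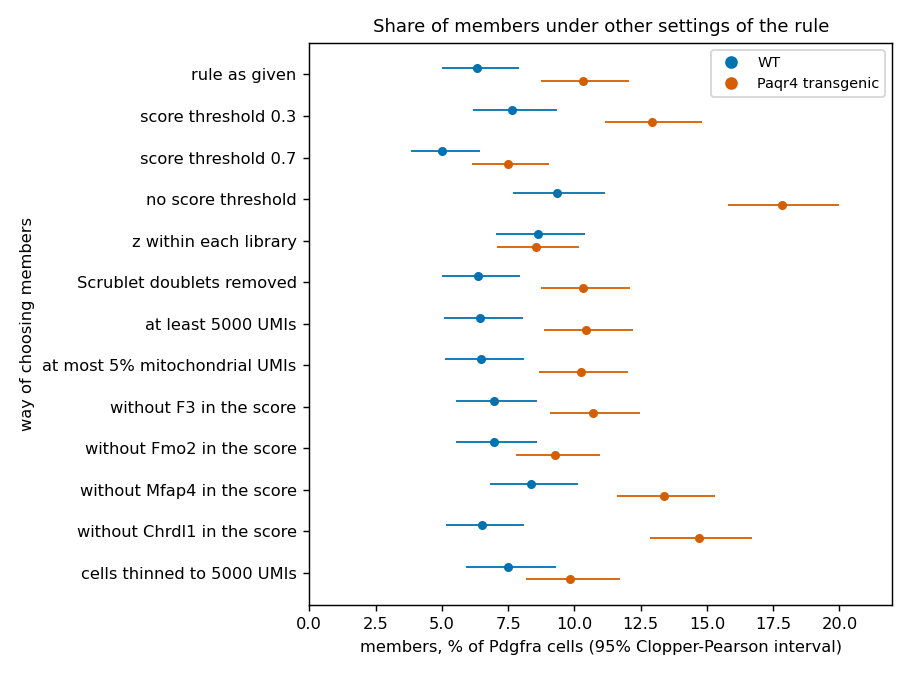
Share of members among Pdgfra cells (x axis, percent) under 13 ways of choosing them (y axis), with WT in blue and Paqr4 transgenic in orange. Points are shares and bars are 95% Clopper-Pearson intervals. The transgenic share is higher in every way shown except standardisation within each library, where it is 8.54% against 8.63% in WT.

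Scores among members ran from 0.524 to 2.65 in WT, with a median of 1.02, and from 0.519 to 4.74 in transgenic, with a median of 0.955. The 10 cells just inside the threshold had scores of 0.519 to 0.556, and the 10 just outside, by the score alone, had 0.461 to 0.496. Between 0.4 and 0.6 lay 51 Pdgfra cells whose F3 score was their highest, 14 in WT and 37 in transgenic. Cells in this range with a higher score for a different set are not in that count. Another 140 cells reached 0.5 on the F3 score but had a higher score for a different set. Of the members, 91 also reached 0.5 on a second score, 34 in WT and 57 in transgenic. The Itgbl1 score was the one most often second, in 23 of the 72 WT members (31.9%) and 43 of the 139 transgenic members (30.9%).

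**Figure D2:**
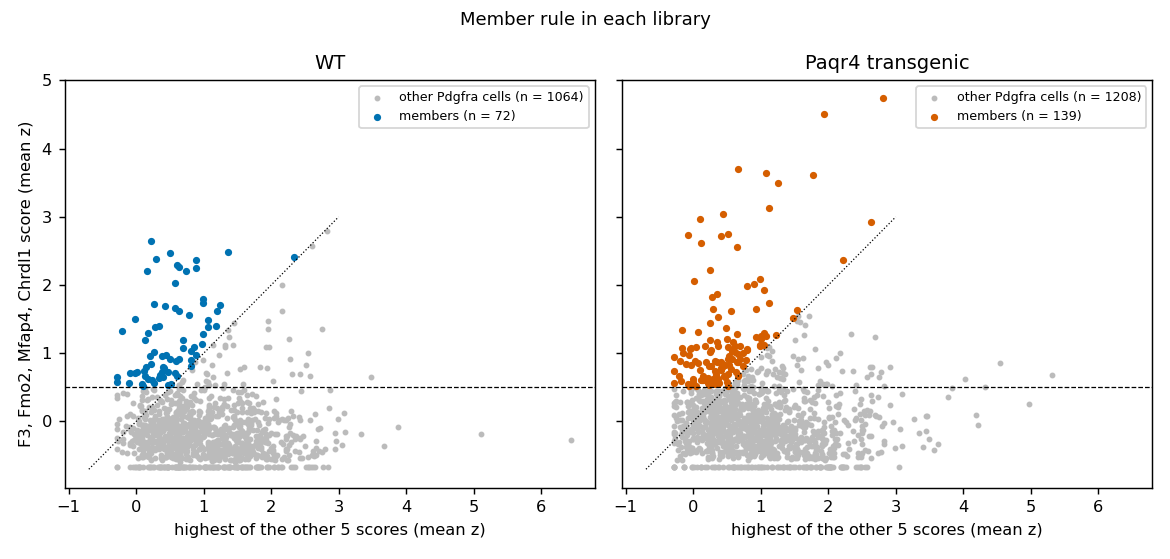
F3 score of each Pdgfra cell (y axis, mean standardised log level of F3, Fmo2, Mfap4 and Chrdl1) against the highest of its 5 other scores (x axis), in WT (left) and Paqr4 transgenic (right). Coloured points are the 72 and 139 members and grey points the other Pdgfra cells, the dashed line is the threshold of 0.5 and the dotted line marks equal scores. Members adjoin the other cells on both lines with no gap.

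Members were close in depth to the other Pdgfra cells. Their median was 21734.5 UMIs in WT and 18294 in transgenic, against 22868.5 and 19653 UMIs in the others, and mitochondrial UMIs took a median of 1.77% and 1.86%. Scrublet called 0 WT members and 1 transgenic member as doublets. Pdgfra itself, the receptor that marks fat progenitors, stood at 585 and 571 UPM in members and at 573 and 521 UPM in the other Pdgfra cells. The fibroblast genes decorin (Dcn, 11668 and 11073 UPM in members) and Col1a1 (1031 and 1000.3 UPM) had log2 ratios over the other cells of 0.31 and 0.11 and of 0.23 and 0.26.

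Of the rule genes, F3 stood at 364 UPM in WT members (335 to 396) and 454 UPM in transgenic members (428 to 480), against 126 and 143 UPM in the other Pdgfra cells. F3 transcripts were widespread: a UMI was found in 91.7% and 95.7% of members, and also in 73.4% and 74.8% of the other Pdgfra cells. Endothelial cells, which should lack F3, had one in 1 of 93 WT cells (1.08%) and in 0 of 75 transgenic cells, which allows a share of up to 4.8%, at lower medians of 9882 and 7989 UMIs. With cells thinned to 5000 UMIs, 70.4% and 79.6% of members and 37.3% and 38.6% of the others had an F3 UMI. F3 in the non-members was thus above the endothelial share even at the thinned depth, and the higher share in members follows from the rule. Per cell, F3 had a median of 2.76 UMIs per 10000 in WT members, with a highest value of 20.2, and a median of 3.20 with a highest value of 26.7 in transgenic members. Free RNA, sampled by barcodes with at most 50 UMIs, had 84.6 UPM of F3 in the WT library and 102 UPM in the other.

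Fmo2 stood at 655 UPM in WT members and 807 UPM in transgenic members, against 107 and 216 UPM in the others. It was also present in endothelial cells, in 80.6% of WT and 50.7% of transgenic ones. Mfap4 stood at 149 and 162 UPM in members and 11.0 and 21.9 UPM in the others, and was found in 38.9% and 50.4% of members and in 0 of the endothelial cells of either library. Chrdl1, which is X-linked, stood at 96.2 and 73.2 UPM in members and 6.26 and 1.61 UPM in the others. It was found in 63.9% of WT members and 29.5% of transgenic members. All 4 rule genes were found together in only 9 members of each library, and the most common number was 3, in 45 WT members and 80 transgenic members.

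Each rule gene was then read in cells chosen by the other 3, so that its own level had no part in the choice. F3 was 1.60-fold higher in such cells than in the remaining Pdgfra cells of WT (log2 0.68, 0.51 to 0.83) and 1.47-fold in transgenic (log2 0.56, 0.43 to 0.68). Fmo2 was 3.58-fold and 2.22-fold higher, and Chrdl1 4.59-fold and 7.19-fold. Mfap4 was 1.90-fold higher in transgenic (log2 0.93, 0.70 to 1.15), while in WT its ratio of 1.3-fold had an interval that included no difference (log2 0.38, −0.08 to 0.81). The 4 genes were put together with these data known, so these ratios are a description of how the rule genes go together and no support for the set.

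Over single Pdgfra cells, the genes most like F3 in rank correlation were Cygb (Spearman correlation 0.18 in WT over 1136 cells and 0.22 in transgenic over 1347 cells), Fzd4 (0.19 and 0.17), Gdf10 (0.16 and 0.20), Bgn (0.14 and 0.17) and Fbln5 (0.13 and 0.15), out of 7494 genes. These values are weak, they share depth and library, and they are given as a description only. Fmo2 ranked 2192 of these genes, at 0.02 and 0.12. Cygb encodes cytoglobin and Fzd4 a Wnt receptor. Cygb stood at 517 and 586 UPM in members and at 240 and 309 UPM in the others.

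Across all genes, members were set against the other Pdgfra cells of the same library. Of 8294 genes at 10 UPM or more, 69 were 2-fold or more higher in both libraries (0.832%) and 46 were 2-fold or more lower in both (0.555%). At 1.5-fold the shares were 2.35% higher and 1.82% lower. The median log2 ratio of all these genes was 0.06 in WT and 0.05 in transgenic. Scaling by TMM (trimmed mean of M values, which sets the bulk of genes equal) moved these medians to −0.06 and −0.05, so ratios of that size carry no direction, and it left 55 genes 2-fold or more higher and 52 lower.

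The 15 genes that stood highest over the other Pdgfra cells in both libraries include genes for secreted, matrix and adhesion proteins. Ccbe1, a secreted factor of lymphatic growth, stood at 114 UPM in WT members and 174 UPM in transgenic members, against 18.9 and 33.7 UPM in the others, which is 6.01-fold and 5.17-fold. Nlgn1, a neuronal adhesion protein, stood at 198 and 144 UPM against 40.4 and 28.8 UPM. Cdh13, the T-cadherin that binds adiponectin, stood at 246 and 227 UPM against 53.9 and 65.5 UPM. For each of these 3 genes both groups of members lay above both groups of other cells. Tmem176a stood at 62.6 and 50.1 UPM against 12.2 and 10.8 UPM, and Tmem176b at 108 and 78.6 UPM against 26.8 and 23.7 UPM. The gene models of this pair overlap on opposite strands, and the sources used here do not give how the counting used strand.

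Epha3, an ephrin receptor, stood at 259 and 264 UPM in members and 78.6 and 80.2 UPM in the others, 3.30-fold and 3.29-fold. Mgp, the matrix Gla protein that inhibits calcification, stood at 2412 and 2449 UPM against 675 and 758 UPM, and it was found in 88.9% and 92.1% of members. Ccn2, a matricellular growth factor, stood at 108 and 258 UPM against 33.8 and 75 UPM. Mgp and Epha3 thus had nearly the same level in members of both genotypes, whereas Ccn2 was 2.39-fold higher in transgenic members and 2.22-fold higher in the transgenic others. Slco2b1, an organic anion transporter, was 2.97-fold and 3.36-fold higher than in the others, Egflam, the matrix protein pikachurin, 2.94-fold and 4.38-fold, and Gria4, a glutamate receptor subunit, 2.78-fold and 3.39-fold.

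The remaining 4 of the 15 were C7, Cilp, Plcxd3 and Ism1. C7, a component of the complement membrane attack complex, stood at 320 UPM in WT members against 37.0 UPM in the others (8.64-fold), and at 1057 UPM in transgenic members against 277 UPM in the others (3.81-fold). Per cell, C7 had a median of 0.145 UMIs per 10000 in WT members, with a highest value of 61.9, and a median of 2.27 with a highest value of 197 in transgenic members. The matrix protein gene Cilp stood at 100.1 and 211 UPM against 26.8 and 72.3 UPM. Plcxd3 stood at 269 and 298 UPM against 47.8 and 98.5 UPM. Ism1, which encodes the secreted protein isthmin 1, stood at 162 and 60.5 UPM against 30.1 and 22.5 UPM. Few cells carried much of these totals: the 5 highest members held 59.9% of C7 UMIs in WT and 26.3% in transgenic, and 74.9% and 58.0% of those of Ism1. Other genes of the 15 were uneven too. The median per member was 0 in both libraries for Ccbe1, Nlgn1, Tmem176a, Tmem176b, Plcxd3, Cilp, Gria4 and Ism1, so a part of the members carried their higher levels. Mgp, Epha3, Cdh13, Slco2b1 and C7 had medians above 0 in both libraries.

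Set against the 5 other progenitor sets, without the cells of no set, members ranked first in both libraries for 12 of the 15 genes, and for the 4 rule genes, where the rule favours it. The exceptions were Mgp and Cilp, where Itgbl1 cells of WT were higher (3136 and 192 UPM), and Ism1, where Itgbl1 cells of the transgenic library were higher (72.5 UPM, with overlapping counting intervals). Some firsts were within counting error: Egflam in WT stood at 67.2 UPM (54.9 to 81.4) in members and 63.2 UPM (50.6 to 78.1) in Itgbl1 cells, Cilp in transgenic at 211 and 209.8 UPM, and the rule gene Mfap4 in transgenic at 162 UPM (147 to 179) and 147 UPM (131 to 165). The next highest set was most often the Itgbl1 cells, as for Ccbe1 (48.5 and 81.9 UPM) and Plcxd3 (199 and 246 UPM). For C7 it was the Itgbl1 cells in WT, at 119 UPM against 320 UPM in members. In transgenic it was the Ptn cells, at 608 UPM against 1057 UPM in members. Cdh13 was more apart, and its next set had 77.9 and 79.0 UPM against 246 and 227 UPM in members. Tgfbi, a gene of the Itgbl1 score, was itself higher in members than in the other Pdgfra cells, at 111 and 59.0 UPM against 28.9 and 25.5 UPM.

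**Figure D3:**
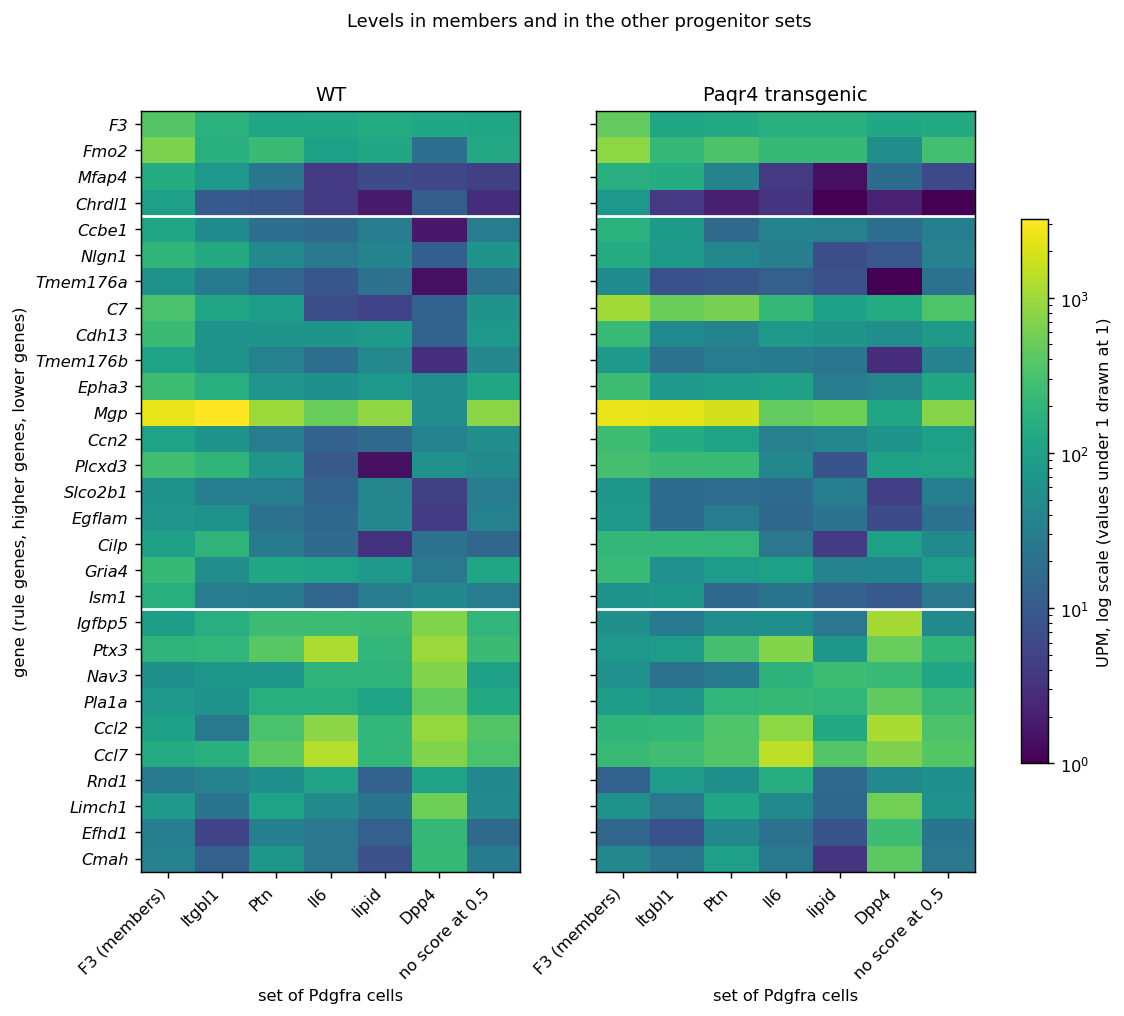
Level (colour, UPM on a log scale) of the 4 rule genes, the 15 genes highest and the 10 lowest over other Pdgfra cells (rows) in members and in the other sets of Pdgfra cells (columns), for WT (left) and Paqr4 transgenic (right). Members rank first for Cdh13 and Tmem176a in both libraries, Mgp is also high in Itgbl1 cells, and Igfbp5 is highest in Dpp4 cells.

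The 10 genes lowest in members were highest in Dpp4 or Il6 cells, except Nav3 in the transgenic library, which was highest in lipid cells. The rule asks that the F3 score be the highest, so genes that go with other scores are lower in part by the choice of cells. Igfbp5, an insulin-like growth factor binding protein, stood at 91.7 and 57.4 UPM in members and 361 and 244 UPM in the others, and was highest in Dpp4 cells at 697 and 1072 UPM. Ptx3, the secreted pattern recognition protein pentraxin 3, stood at 189 and 73.6 UPM against 653 and 321 UPM, and was highest in Il6 cells. Ccl2, which attracts monocytes, stood at 102 and 199 UPM against 564 and 531 UPM, and Ccl7, a related chemokine, at 145 and 232 UPM against 628 and 615 UPM. Nav3, Pla1a, Rnd1, Limch1, Efhd1 and Cmah were also among the 10 lowest, with log2 ratios between −1.22 (Cmah in WT) and −2.44 (Rnd1 in transgenic). Against the 5 other sets, members ranked last in both libraries only for Ccl7. They ranked 3 of 6 for Limch1 and Cmah in both libraries and for Efhd1 in WT. For Igfbp5 in transgenic they ranked 2, at 57.4 UPM against 55.3 UPM in Il6 cells and 28.2 UPM in Itgbl1 cells. A low ratio over the pooled others thus does not make members the lowest set.

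Genes that published work gives as marks of the CD142 population, none of them in the rule, were mostly higher in members. Of 20 listed genes, 17 reached 10 UPM, and 10 of these 17 were 1.5-fold or more higher in both libraries and 0 lower, with medians of 0.93 and 0.90 against 0.06 and 0.05 for all genes. The shares over all genes were 2.35% higher and 1.82% lower. Meox2, a homeobox factor, stood at 24.5 and 41.6 UPM in members against 4.20 and 6.54 UPM in the others. Gdf10, a ligand of the BMP family, stood at 402 and 380 UPM against 128 and 170 UPM, and Gas6, a ligand of TAM receptors, at 156 and 151 UPM against 55.3 and 58.3 UPM. For Gdf10 and Gas6 both groups of members exceeded both groups of other cells. Clec11a, a secreted growth factor, stood at 47.8 and 59.4 UPM against 23.5 and 30.5 UPM in the others, but at 58.8 and 56.0 UPM in Itgbl1 cells, with counting intervals that overlap those of members. The methyltransferase gene Inmt stood at 451 and 633 UPM against 188 and 308 UPM. The remaining members of the 10 were Mgp, Cpe, Bgn, Hmcn2 and Sparcl1.

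Some published marks did not follow. Il13ra1 had log2 ratios of −0.47 and −0.93, Adamtsl3 0.07 and −0.41, and Vit −0.05 and −0.23. Of the 3 genes below 10 UPM, the cholesterol exporter gene Abcg1 had 1.94 and 1.54 UPM in members. Cd36, a fatty acid transporter gene, had 0 and 2 UMIs in members, and Bmp7 had 1.29 UPM in WT members and 0 UMIs in transgenic members. Of 8 published secreted or surface inhibitors of adipogenesis from these cells, 5 reached 10 UPM. Bgn and Gdf10 were higher in both libraries, Fgf12 was lower (log2 −0.82 and −0.77), and Rarres2, which encodes chemerin (log2 0.16 and 0.08), and Vit were within 1.5-fold. Rtp3 and Spink2 had 0 UMIs in WT members and 1 UMI each in transgenic members.

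Among signalling ligands of the BMP and TGF-beta family, 8 reached 10 UPM, and Gdf10 and Bmp4 were higher in both libraries while Bmp6 was lower. For the counts of this paragraph, the shares over all genes were 2.35% higher and 1.82% lower. Bmp4 stood at 34.9 and 38.9 UPM in members and 16.1 and 17.5 UPM in the others, and Bmp6 at 28.4 and 17.3 UPM against 60.2 and 64.0 UPM. Of 15 receptors and antagonists, 2 were higher and 1 lower. Among the higher ones, the receptor gene Acvr2a stood at 274 and 185 UPM against 164 and 123 UPM. Fst, which encodes the activin antagonist follistatin, was lower, at 114 and 59.0 UPM against 235 and 134 UPM. Of 9 Wnt ligands and secreted modulators, the antagonist genes Sfrp1, Sfrp4 and Dkk3 were higher in both libraries and 0 were lower. Sfrp1 stood at 245 and 265 UPM against 98.3 and 130 UPM.

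Complement genes were the list with the highest medians, 1.07 in WT and 1.02 in transgenic. Of 9 genes at 10 UPM, 5 were higher in both libraries and 0 lower, against shares of 2.35% and 1.82% over all genes. Besides C7, these included C4b (201 and 170 UPM against 81.9 and 61.8 UPM), Cfb (67.8 and 85.6 UPM against 29.8 and 35.7 UPM) and C2 (84.6 and 59.0 UPM against 40.2 and 29.1 UPM). C1ra and C1s1, of the classical pathway's first component, had log2 ratios of 0.31 to 0.34 and 0.05 to 0.07. Of the 9, only C7 passed 1.5-fold between the members of both genotypes, and the log2 ratio of transgenic over WT was −0.25 for C4b.

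Chemokines and cytokines stood the other way: 7 of 13 were lower in both libraries and 1, Cxcl12, was higher, with medians of −0.81 and −0.93. The others include the Dpp4 cells, where Ccl2 was highest, and the Il6 cells, where Ccl7 was highest. Such genes are lower in members in part by the choice of cells. Ccl2 stood at 102 UPM in WT members and at 25.7 UPM in WT Itgbl1 cells. In transgenic it stood at 199 UPM in members and 135 UPM in lipid cells, and members ranked 5 of 6 in both libraries. Over all genes, 2.35% were higher and 1.82% lower in both libraries by 1.5-fold. Of 12 retinoid genes, 2 were higher and 0 were lower, and the higher ones included Aldh1a3 (105 and 79.0 UPM against 50.02 and 40.5 UPM), which makes retinoic acid. Of 18 elastic fibre genes, elastin (Eln, 836 and 725 UPM against 339 and 324 UPM) and fibulin 1 (Fbln1, 732 and 736 UPM against 351 and 280 UPM) were higher, and Efemp1 was lower. Of 12 adipogenesis genes 0 were higher and 1 was lower, which is near the shares over all genes, and the list medians were 0.02 and −0.04. The lower gene was Fabp4, a fatty acid carrier, at 18.1 and 17.0 UPM against 43.6 and 61.9 UPM. Of 12 coagulation genes other than F3, only Gas6 was higher, and Tfpi2, Plau and Plaur were lower. In the interferon (18 genes), ceramide (18), immediate early (16) and heat shock (17) lists, 0 genes passed 1.5-fold in both libraries in either direction, which is near the shares of 2.35% and 1.82% over all genes and says nothing particular to these lists.

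**Figure D4:**
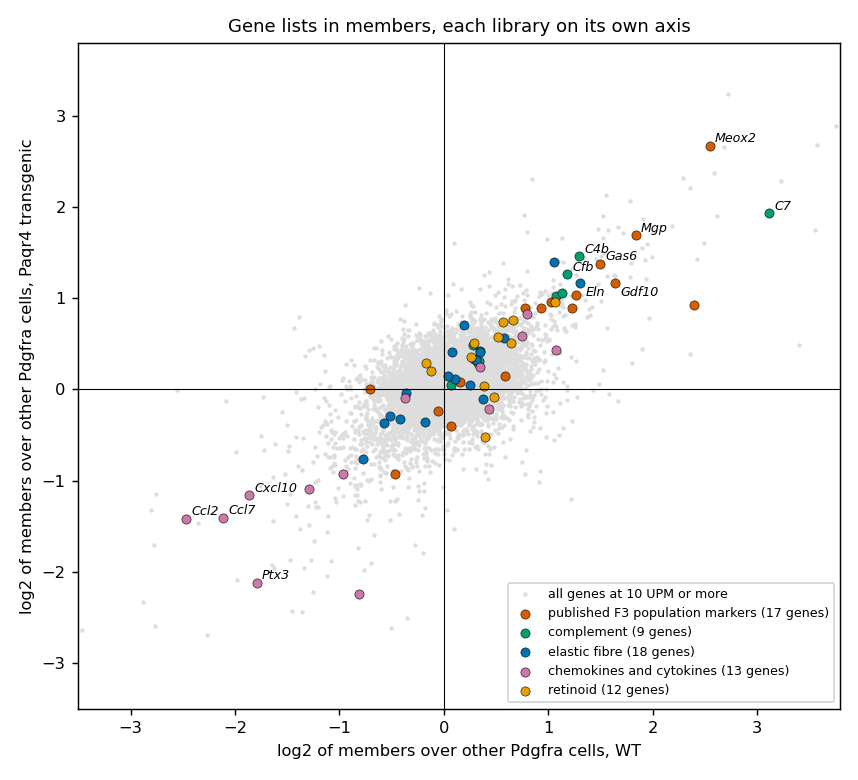
Log2 ratio of members over other Pdgfra cells in WT (x axis) and Paqr4 transgenic (y axis), 1 point per gene. Grey points are the genes at 10 UPM or more (8294, of which 5 lie beyond the axes) and coloured points 5 gene lists. Most complement genes and published marks lie to the upper right, with C7 at 3.11 and 1.93, and Ccl2, Ccl7 and Ptx3 to the lower left.

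Markers of other cell types differed by list. Of 9 immune markers 5 were at 0 in each library, Ptprc among them in both, and the list summed to 3.87 UPM in WT members and 10.8 UPM in transgenic members, against 4.28 and 2.98 UPM in the others, with 21 of the 28 UMIs of transgenic members in 1 cell. All 5 adipocyte and all 5 skeletal muscle markers were at 0 in both libraries, cycling markers summed to 1 and 2 UMIs, and the 6 epithelial markers summed to 0 and 4 UMIs. Blood endothelial markers summed to 9.04 and 17.0 UPM in members against 24.1 and 39.9 UPM in the others. Pericyte and smooth muscle markers summed to 91.7 and 61.7 UPM in members against 39.7 and 27.1 UPM in the others, of which Abcc9 made up 56.2 and 32.0 UPM, while the pericyte marker Rgs5 had 0 UMIs in WT members and 2 in transgenic members. Schwann cell markers were higher in members too, at 27.1 and 22.4 UPM against 15.4 and 12.3 UPM, with Sox10 at 0 in both libraries. Lymphatic endothelial markers summed to 170 and 151 UPM in members against 306 and 321 UPM in the others, with Flt4 and Mmrn1 at 0 in members of both libraries. Lyve1 was at 0 in WT members too, so the WT sum is that of Prox1 and Pdpn alone. Mesothelial markers had 0 UMIs in WT members and 55 in transgenic members, 52 of them in 1 cell. Red cell markers summed to 5318 UPM in WT members and 1483 UPM in transgenic members, but 2 WT cells and 1 transgenic cell held most of these UMIs, and without the 3 highest cells of each library the sums were 601 and 458 UPM. The part of these transcripts in the results was not tested, beyond leaving out cells with over 5% haemoglobin UMIs or 3 mesothelial markers. Cells with markers of the other lists were not left out for those.

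Members of the transgenic library were then set against members of the WT library, which asks how these cells differed with genotype, within the limits given above. Of 8730 genes at 10 UPM or more, 165 were 2-fold or more higher (1.89%) and 152 were 2-fold or more lower (1.74%) in transgenic members. At 1.5-fold the shares were 9.46% higher and 5.9% lower, and the median log2 ratio was 0.07. With TMM scaling 144 genes were 2-fold or more higher and 172 lower. Of the 12 highest and 12 lowest genes, all but Rad52 and Hgf had a ratio of the same sign in the other Pdgfra cells, so the values for both are given.

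Nfatc2, a transcription factor activated by calcineurin, stood at 8.39 UPM in WT members (4.47 to 14.4) and 74.0 UPM in transgenic members (63.9 to 85.3), a log2 ratio of 3.14. In the other Pdgfra cells it stood at 49.4 and 74.4 UPM, so the low value was that of the WT members, and 66.7% of its UMIs in transgenic members came from 5 cells. Serpine2, a protease inhibitor, stood at 7.10 and 57.0 UPM in members (log2 3.01) and at 15.0 and 72.3 UPM in the others. C7 was higher by 1.72 in members and by 2.90 in the other cells. Vav3, an exchange factor for small GTPases, stood at 35.5 and 121 UPM in members, a log2 ratio of 1.76 against 1.33 in the others. Fhl2, a LIM domain cofactor, stood at 20.7 and 63.6 UPM in members, a log2 ratio of 1.62, and was higher in the transgenic others too. Ptk2b (1.78), Ube2m (1.51), Adamts19 (1.49), Zbtb7c (1.48), Jazf1 (1.39) and Col8a1 (1.29) completed the higher genes together with Rad52. Rad52 had a log2 ratio of 1.63, but 78.0% of its UMIs in transgenic members came from 5 cells, and with scores standardised within each library its ratio was −0.50.

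Zbtb16, a zinc finger transcription factor, stood at 1133 UPM in WT members (1081 to 1188) and 312 UPM in transgenic members (291 to 334), a log2 ratio of −1.86. It was found in 98.6% and 84.9% of members, and in the other Pdgfra cells it stood at 913 and 287 UPM. Il4ra, the receptor subunit shared by interleukins 4 and 13, stood at 52.3 and 10.0 UPM in members (log2 −2.38) and 62.4 and 17.9 UPM in the others. Prlr, the prolactin receptor, stood at 82.0 and 24.3 UPM (log2 −1.76), and the imprinted gene Peg3 at 221 and 69 UPM (log2 −1.68), with −1.71 and −1.29 in the others. Nrcam, Fam13a and Ifitm1 had log2 ratios of −2.68, −2.50 and −2.37 in members and −0.87, −1.85 and −1.31 in the others. Hgf, hepatocyte growth factor, stood at 123 and 33.1 UPM in members (log2 −1.90) but at 65.6 and 67.0 UPM in the others, and 86.9% of its UMIs in WT members came from 5 cells. Hmox1, Lsamp, Slc16a10 and Mamdc2 had log2 ratios between −1.54 and −1.61.

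**Figure D5:**
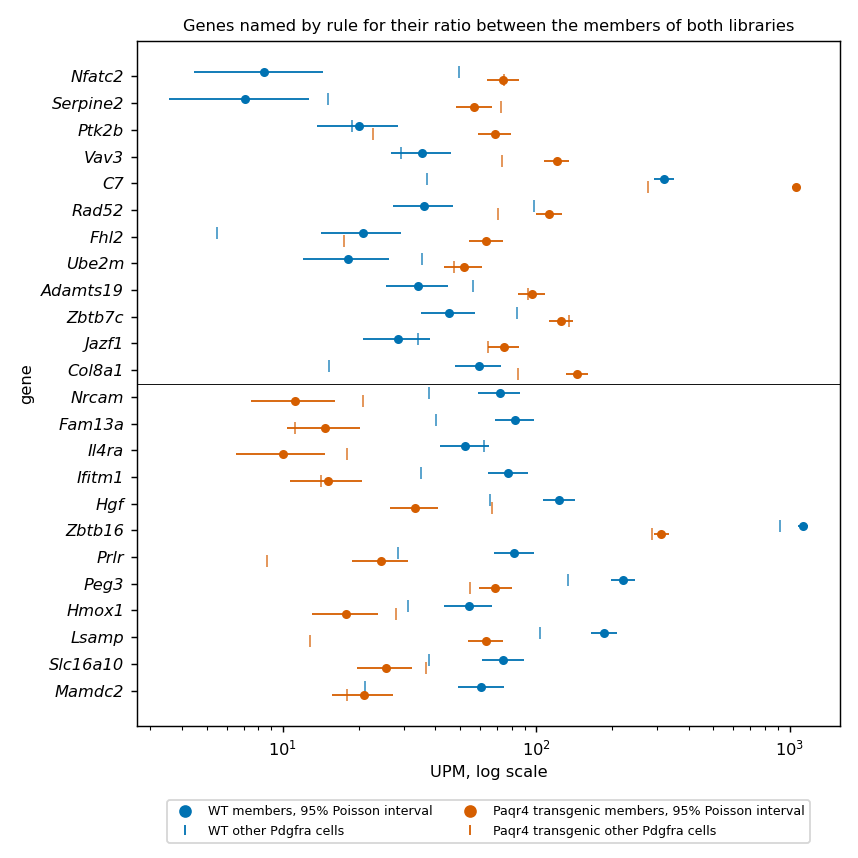
Level (x axis, UPM on a log scale) of the 12 genes highest and the 12 lowest in transgenic over WT members (y axis). Points are members of WT (blue) and Paqr4 transgenic (orange) with 95% Poisson intervals, and vertical ticks are the other Pdgfra cells of the same library. Zbtb16 shifts alike in members and other cells, whereas for Hgf the 2 ticks coincide near 66 UPM.

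By list, 9 of 16 cholesterol and fatty acid synthesis genes at 10 UPM were 1.5-fold or more higher in transgenic members and 1 was lower, with a median log2 ratio of 0.67 against 0.07 for all genes. Over all genes, 9.46% were higher and 5.9% lower by 1.5-fold, and a count of 0 in the lists below is near these shares. Fdps, an enzyme of the mevalonate pathway, stood at 5.81 and 19.7 UPM in members, a log2 ratio of 1.76 against 1.36 in the others. Of 13 retinoid genes, 5 were higher and 0 lower, among them Rbp4 (0.93) and Dhrs3 (0.84). The Icam1 list had 0 higher and 4 lower of 11 genes, with a median of −0.55 that moved to −0.16 with equal weight for each cell. Of the 17 published marks at 10 UPM, 4 were higher (Meox2, Bgn, Hmcn2 and Steap4) and 1 was lower (Il13ra1), and Bgn and Il13ra1 are X-linked. The IGF list had 0 higher and 3 lower of 10 genes: Igfbp3 stood at 248 and 11.6 UPM, with 92.2% of its UMIs in WT members from 5 cells, and Igf1 at 520 and 338 UPM.

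Some genes were at 0 UMIs in 1 group of members. Sult1e1, the estrogen sulfotransferase, had 0 UMIs in WT members and 251 in transgenic members, 96.8 UPM (85.2 to 109). With the 0 set to a floor of 3 UMIs, the level was 49.9-fold higher. That fold is no lower bound, because the counting interval of the 0 reaches 2.38 UPM, above the floor of 1.94 UPM. In the other Pdgfra cells Sult1e1 stood at 3.72 and 89.5 UPM. Dlk1, an inhibitor of adipogenesis, had 57 UMIs in WT members, found in 4.17% of them, and 0 in transgenic members. With the same floor it was 31.8-fold lower, a value that rests on those few WT cells. Haemoglobin genes were lower in transgenic members, with a median log2 ratio of −2.05 for the list of blood and muscle RNA, which was −0.42 without the 2 WT and 2 transgenic members that had over 5% haemoglobin UMIs or 3 mesothelial markers.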

How the data were processed

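A pair of 10x Genomics libraries was used, 1 per genotype. The deposited matrices hold UMI counts, not normalised, for every barcode (1175238 in WT and 997538 in transgenic). Cell Ranger 7.0.0 and the build mm10 are listed in the submitters' processing notes, and the matrix header names Cell Ranger 4. Features that shared a symbol (78 features, 38 symbols) were summed. Gene positions are from GENCODE M21 (GRCm38), which held 32235 of 32286 feature identifiers.

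UMIs were summed over the cells of a group in each library and divided by the group's total to give UPM. Levels carry exact Poisson intervals, shares Clopper-Pearson intervals and ratios exact conditional binomial intervals, all at 95%. A gene at 0 in 1 of the groups compared was set to a floor of 3 UMIs, which is 1.94 UPM in WT members and 1.16 UPM in transgenic members. Doublets were called with Scrublet (scanpy 1.11.5), kept in the main results and removed in an alternative. TMM scaling factors, an alternative to UPM, came from edgeR 4.0.16. Ratios over all genes used genes with a mean of at least 10 UPM over the groups compared, in each library. The member rule was tested on simulated data and the Poisson interval on known values. A ratio of summed UMIs was also simulated, but not with the code that gave the reported ratios and their intervals.

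Named genes were the 15 highest and 10 lowest over other Pdgfra cells by the smaller ratio of both libraries and the 12 highest and 12 lowest between genotypes, among genes at 50 UPM or more with a UMI in 20% or more of the cells of the higher group. Rule, sex-linked, haemoglobin, mitochondrial, ribosomal, Gm and Rik genes were left out. Up to 4 genes of each of 27 lists were added, with the published marks, the rule genes and Paqr4. The other genes of the lists that are named, with Cygb, Fzd4, Dcn and Col1a1, were chosen after their values were seen, except that the 5 genes most like F3 followed a rule. The members and the lists were chosen with earlier results of these data known. Some genes of the lists are not reported here by name.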

Additional observations from a re-analysis of the deposited data

Results flagged for a closer look

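Hgf, hepatocyte growth factor, was higher in members than in the other Pdgfra cells of the WT library (log2 0.91, 0.69 to 1.13) and lower in the transgenic library (log2 −1.02, −1.35 to −0.70). The opposite directions drew attention to it, and the difference between the libraries was not tested. In WT members 86.9% of its 191 UMIs came from 5 cells, and in transgenic members 53.5% of its 86 UMIs did. The share of cells with an Hgf UMI was 26.4% in WT members, 27.1% in the WT others, 20.1% in transgenic members and 22.5% in the transgenic others.

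The deposited feature list holds an added eGFP sequence that the labels do not mention. It had 4 UMIs over all barcodes of the transgenic library and 0 over those of the WT library, and 0 in the cells of either.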

How the results depend on the processing

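No paired analysis was possible because each genotype has 1 library. The share of members moved beyond its counting interval in WT to 9.33% with no score threshold, 8.63% with scores standardised within each library and 8.36% without Mfap4, and in transgenic to 12.9% at a threshold of 0.3, 7.50% at 0.7, 17.8% with none, 8.54% with scores within each library, 13.4% without Mfap4 and 14.7% without Chrdl1. Removing doublets, requiring 5000 UMIs or allowing 5% mitochondrial UMIs left both shares within it. The settings recount mostly the same cells, so the interval serves here only as a mark of size. A lower threshold or none can only raise the share, and a higher one can only lower it.

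Between genotypes, 250 of 8709 genes were 2-fold or more higher (2.87%) and 198 lower (2.27%) at a threshold of 0.7. A floor of 50 UPM left 33 genes 2-fold or more higher and 17 lower over other Pdgfra cells, of 3254 genes. Between genotypes it left 27 higher (0.766%) and 35 lower (0.993%), of 3524 genes. These floors test fewer genes. Of the 24 genes named between genotypes, Rad52 reversed, to −0.50 with scores within each library. Another 2 moved with those scores, 3 moved with equal weight for each cell and 1 at a threshold of 0.7. C7 moved to 2.01 and 2.07 with those scores and with equal weight for each cell. The cause was not tested.

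Leaving out members with over 5% haemoglobin UMIs or 3 mesothelial markers, an alternative chosen after seeing the data, moved 5 of 50 ratios of named genes over other cells, among them Ccl2 in WT to −3.13 and Nlgn1 in WT to 2.67, and 0 of 24 between genotypes. Of the same 50 ratios, 23 moved at a threshold of 0.7, 15 with equal weight for each cell, 13 with scores within each library, 3 with TMM and 0 without doublets. With 72 and 139 cells, a gene at 10 UPM rests on few UMIs, and the spread between mice is unknown.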
